A study of Mus musculus with 4 samples.

Results

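Peaks called for PHF6 in a mouse pre-B cell leukemia culture numbered 77749. Of these, 17588 were low peaks that carried neither H3K27 acetylation nor H3K27 trimethylation but lay close beside an acetylated site. These flanking peaks were chosen by 4 conditions. They lay on chromosomes 1 to 19, their summit height was below 28, they overlapped no H3K27ac and no H3K27me3 peak by as much as 1 bp, and their summit was within 10 kb of the nearest H3K27ac summit. They made up 22.9% of the 76703 PHF6 peaks on chromosomes 1 to 19 and 35.6% of the 49435 low unmarked ones. The other 31847 low unmarked peaks lay farther than 10 kb from any H3K27ac summit and are called distant peaks here. Summit height is the pileup of sequenced fragments at the highest point of a peak, as the authors' peak caller gave it. Height, overlap and distance chose the peaks and are given below as description only.

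The culture was a pre-B cell leukemia of strain C57BL/6J, p19 null and overexpressing the BCR-ABL1 fusion kinase, and no further treatment was named. All 4 libraries of the series came from such cells, so the transgene and the deletion were shared by every library: PHF6, H3K27ac and H3K27me3 chromatin immunoprecipitations (ChIP-seq) and an input DNA library. Each antibody had 1 library. No value below has a replicate error and no test between conditions was possible. The input library was not analysed here, and whether it served as control for the peak calls is not stated. How many of the low peaks are true binding sites was therefore not tested. The labels do not say whether the culture was 1 clone.

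PHF6 is a nuclear and nucleolar protein with PHD-type zinc finger domains that binds chromatin and associates with the NuRD chromatin remodelling complex, and its gene is recurrently mutated in human T-cell acute lymphoblastic leukemia. H3K27ac marks active promoters and enhancers. H3K27me3 is laid down by Polycomb repressive complex 2 at silenced genes, and the same lysine cannot carry both marks at once.

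The flanking peaks were small. Their summit heights ran from 12 to 27 with a median of 20 (quartiles 18 and 23), against a median of 20 (17 and 22) in the distant peaks. The commonest height was 19 in both, with 2047 flanking and 3708 distant peaks. The height limit of 28 cut through a continuous slope: within 10 kb of H3K27ac there were 537 unmarked peaks of height 27 and 421 of height 28. Those just inside the limit had a median score of 173 and those just outside a median of 181. The score is the peak caller's own value, which falls as the p-value of the peak rises. Around the distance limit, 138 low unmarked summits lay in the last 100 bp inside it and 143 in the first 100 bp outside, so neither limit separated 2 distinct populations.

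Flanking peaks were wider than distant peaks. Height was capped below 28 in both classes by the selection and width was not, so their differences are not compared. Flanking peaks had a median width of 1009 bp (quartiles 853 and 1317) and distant peaks 908 bp (772 and 1123). Peaks wider than 2 kb numbered 1181 among the flanking peaks, or 6.71% (95% exact binomial interval 6.35 to 7.09), against 973 or 3.06% (2.87 to 3.25) of the distant ones. All such intervals cover counting error only, and neighbouring peaks are not independent. The median score was 100 in flanking peaks and 94.8 in distant peaks. Low PHF6 peaks that themselves lay in H3K27ac, without H3K27me3 (9702 peaks), were wider and higher than the flanking peaks, with medians of 1293 bp and height 23. An overlap of 1 bp separated these classes, and a wider peak meets it more easily. The difference in width is therefore not independent of the selection.

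The 5 highest-scoring flanking peaks were long, and their heights of 25 to 27 lay above the upper quartile of the class (23). The first, on chromosome 8 from 90836762 to 90844873 (band qC3, build mm9), was 8112 bp wide with a height of 27 and a score of 1202. The second spanned 7356 bp on chromosome 17 from 25515993 to 25523348 (qA3.3), with a height of 26. The next 2 were both in band qE2 of chromosome 4, from 151749717 to 151754693 (height 26) and from 154343985 to 154349195 (height 27). The last of the 5 lay on chromosome 15 from 89214801 to 89219433 (qE3, height 25). Their summits were between 6181 and 9176 bp from H3K27ac peaks of heights 14 to 29, and each of these 5 H3K27ac peaks held PHF6. The nearest H3K27ac peak held PHF6 for 85.1% of all flanking peaks and for 92.5% of those over 2 kb wide, as all 5 were. No gene annotation or genome sequence of build mm9 was used here, so sites are given by position and cytogenetic band.

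The next question was how far from acetylation the peaks lay, and whether the flanks were denser in PHF6 than the ground beyond. Summits of flanking peaks lay a median of 4607 bp from the nearest H3K27ac summit (quartiles 2791 and 6939). Between the edges of the 2 peaks the median gap was 3211 bp (1398 and 5563). That the peaks did not overlap was fixed by the selection, and the smallest gap seen was 1 bp. Because less unmarked ground remains close to H3K27ac, summits were counted per Mb of ground outside both marks. This ground covered 364 Mb within 10 kb of H3K27ac, or 14.7% of the autosomes.

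Within the flank, density was lowest right beside the H3K27ac summit, at 7.57 low unmarked summits per Mb in the first kb, where a peak of usual width would nearly always touch the acetylated one and so leave the class. It was 45.4 per Mb from 1 to 2 kb, and 57.0 and 57.1 per Mb in the next 2 bins of 1 kb. It then fell to 43.9 per Mb between 9 and 10 kb, 36.0 between 10 and 20 kb, 21.2 between 40 and 50 kb and 5.24 beyond 200 kb. Over the whole flank the density was 48.3 per Mb (95% counting interval 47.6 to 49.0), against 28.9 (28.5 to 29.3) at 10 to 50 kb, a ratio of 1.67 (1.64 to 1.71). The decline was gradual and showed no step at 10 kb. Unmarked PHF6 peaks above the height limit followed the same course, with 3.94 per Mb within 10 kb and 1.93 per Mb at 10 to 50 kb, a ratio of 2.04 (1.89 to 2.20). Their share among unmarked peaks was 7.54% (7.17 to 7.93) in the flanks and 6.25% (5.99 to 6.51) beyond. Within the flank the median PHF6 height was 19 in the first kb and 20 in each of the 9 further bins.

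**Figure D1:**
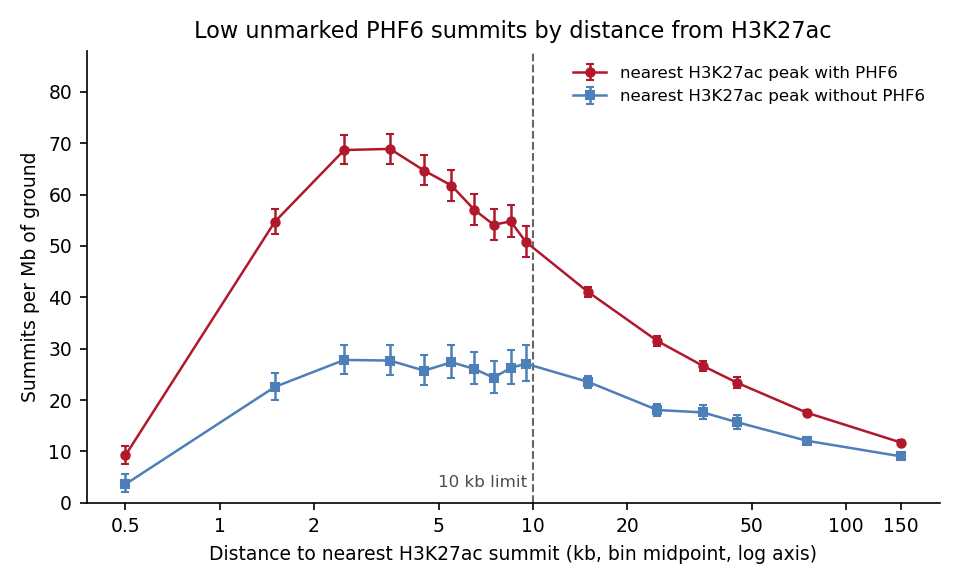
Low unmarked PHF6 summits per Mb of ground outside H3K27ac and H3K27me3 peaks (vertical axis), by distance to the nearest H3K27ac summit in kb (log axis, bin midpoints up to 200 kb). Red circles are ground whose nearest H3K27ac peak holds PHF6 and blue squares ground whose nearest one does not, with 95% counting intervals. Red is highest at 68.9 per Mb between 3 and 4 kb, 50.8 between 9 and 10 kb and 41.1 between 10 and 20 kb, while blue stays between 22.6 and 27.8 per Mb from 1 to 10 kb.

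The flanking peaks lay mostly beside acetylated sites that themselves held a called PHF6 peak, a property the selection did not use. The nearest H3K27ac peak held PHF6 for 14970 of 17588 flanking peaks, or 85.1% (84.6 to 85.6). Among the 1435 taller unmarked peaks in the same flanks it was 86.3% (84.5 to 88.1), an interval that covers the value of the low ones. Among distant peaks it was 79.1% (78.6 to 79.5), and of all 31732 autosomal H3K27ac peaks 72.2% (71.7 to 72.7) held PHF6. H3K27ac peaks with PHF6 had 71.2% of the flanking ground. Per Mb of ground there were 57.8 flanking summits (56.9 to 58.7) next to H3K27ac peaks with PHF6 and 24.95 (24.0 to 25.9) next to those without, a ratio of 2.32 (2.22 to 2.41). At 10 to 50 kb the same split gave 32.7 and 19.6 per Mb, a ratio of 1.66 (1.60 to 1.73), so the contrast was larger inside the flank and did not end there.

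The plot by distance gives the course in the 2 classes. Next to H3K27ac with PHF6, density was 68.7 per Mb (65.9 to 71.5) between 2 and 3 kb and 50.8 (47.8 to 53.9) between 9 and 10 kb. Next to H3K27ac without PHF6 it was 27.8 per Mb between 2 and 3 kb and 27.1 between 9 and 10 kb, within each other's counting intervals. Flanking peaks next to H3K27ac with PHF6 were also a little wider, with medians of 1020 and 950 bp. They had higher scores, with medians of 103 and 89.5, at the same median height of 20. By width, the nearest H3K27ac peak held PHF6 for 82.5% of flanking peaks up to 1 kb wide, 86.9% of those between 1 and 2 kb and 92.5% of those over 2 kb. Distant peaks had 77.5%, 81.2% and 88.7% in the same width classes, so the rise with width was seen in both.

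H3K27ac peaks of low summit height had the most low PHF6 peaks in their flanks. The H3K27ac peak nearest to a flanking peak had a median height of 25 (quartiles 19 and 85), against 35 (20 and 173) for all H3K27ac peaks. H3K27ac peaks were ranked by height into deciles, and ground was given to its nearest peak. Flanking summits numbered 56.0 per Mb around the lowest decile (heights 11 to 17), 66.0 around the second, 50.3 around the fifth and 43.9 around the eighth (114 to 235), and 23.2 around the top decile (312 to 400). The top decile thus had 0.414 times the density of the bottom one (0.383 to 0.447). At 10 to 50 kb the ratio of top to bottom decile was 0.726 (0.682 to 0.773), so the tallest acetylated sites had fewer low unmarked PHF6 peaks around them there too. The share of H3K27ac peaks that hold PHF6 moves with height, so height was also read separately in the 2 classes.

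The relation with height lay in the class that held PHF6. Around H3K27ac peaks with PHF6, density was 64.1 per Mb at the lowest decile and highest, at 88.3 per Mb (84.1 to 92.6), at the fourth (heights 22 to 26). It then fell through 70.8 at the sixth and 49.2 at the eighth to 23.2 (21.7 to 24.7) at the top decile, 0.362 times (0.334 to 0.391) the lowest decile. Around H3K27ac peaks without PHF6 the 10 values stayed between 20.3 and 27.7 per Mb at all heights, with a top to bottom ratio of 1.18 (0.643 to 2.00) that rests on 15 flanking peaks at 45 H3K27ac peaks in the top decile. At the top decile the classes with and without PHF6 therefore stood at 23.2 and 23.9 per Mb, within counting error of each other. At the fourth decile they stood at 88.3 and 24.7 per Mb.

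**Figure D2:**
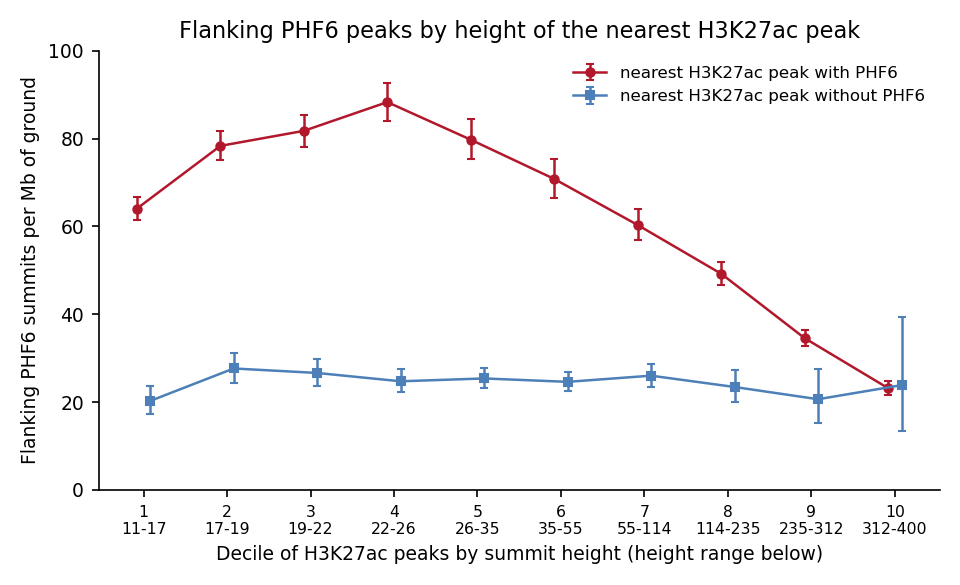
Flanking PHF6 summits per Mb of ground within 10 kb (vertical axis), by decile of H3K27ac peaks ranked on summit height (horizontal axis, lowest decile at the left, height range printed below each). Red circles are H3K27ac peaks that hold PHF6 and blue squares those that do not, with 95% counting intervals. Red climbs to 88.3 per Mb at the fourth decile and falls to 23.2 at the top decile, where it meets blue, which stays between 20.3 and 27.7 throughout.

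The height of PHF6 inside the acetylated peak gave a like picture. H3K27ac peaks with PHF6 were ranked by the tallest PHF6 summit of any peak overlapping them. Flanking density was 64.8 per Mb at the lowest decile (PHF6 heights 12 to 21), 69.8 at the second, 66.0 at the fifth and 61.2 at the sixth (29 to 32). It was 43.1 per Mb at the ninth and 31.2 at the top decile (43 to 400), 0.481 times (0.443 to 0.523) the lowest. The strongest PHF6 sites were thus not the ones with the most low PHF6 peaks beside them. The parts of PHF6 height and H3K27ac height in this decline were not separated. PHF6 peaks that overlap H3K27ac can reach into the flank, and that ground was not left out, although no flanking summit can lie on it. How much this lowers the densities, here and by H3K27ac height, was not tested.

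Each flanking peak was counted only at its nearest H3K27ac peak, so a second H3K27ac peak within 10 kb of it was not credited. Counted so, 10532 of 31732 H3K27ac peaks, or 33.2% (32.7 to 33.7), had at least 1 flanking peak. With PHF6 inside, 37.7% (37.0 to 38.3) of H3K27ac peaks were the nearest one to at least 1 flanking peak, and without it 21.6% (20.8 to 22.5) were. A single flanking peak was nearest to 6271 H3K27ac peaks, 2 to 2544, 3 to 1032 and 6 or more to 96. The more flanking peaks an H3K27ac peak had, the lower it was: the median H3K27ac height was 40 with 0 flanking peaks, 31 with 1, 23 with 3 and 19 with 6 or more. The share that held PHF6 was 67.3% (66.7 to 68.0) with 0 flanking peaks, 77.6% with 1, 89.9% with 3 and 94.8% (88.3 to 98.3) with 6 or more. The PHF6 peak inside had a median height of 30 with 0 flanking peaks and 27 with 6 or more.

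**Figure D3:**
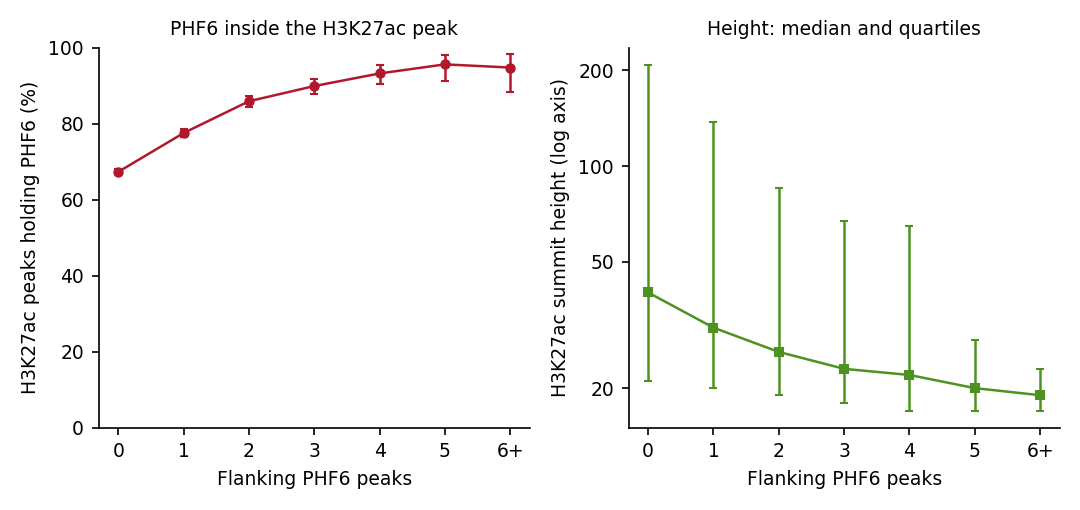
H3K27ac peaks grouped by the number of flanking PHF6 peaks nearest to them (horizontal axis, 0 to 6 or more). Left, percent of H3K27ac peaks that hold PHF6, with 95% exact binomial intervals, climbing from 67.3% at 0 to 94.8% at 6 or more. Right, median H3K27ac summit height on a log axis with bars from the lower to the upper quartile, falling from 40 at 0 to 19 at 6 or more.

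The 5 H3K27ac peaks with the most flanking peaks were all weakly acetylated and all held PHF6. The first, on chromosome 18 from 80612869 to 80614540 (qE3), had an H3K27ac height of 24 and 9 flanking peaks, 5 at lower and 4 at higher coordinates. These 9 had heights of 17 to 25 and lay 1565 to 9738 bp from the H3K27ac summit, while the taller of the 2 PHF6 peaks overlapping the H3K27ac peak had height 22.

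The other 4 sites had 8 flanking peaks each. They were on chromosome 6 from 86586353 to 86587298 (qD1, H3K27ac height 27), chromosome 15 from 73382905 to 73383754 (qD3, height 19), chromosome 17 from 30343720 to 30344465 (qA3.3, height 14) and chromosome 8 from 124308406 to 124309315 (qE1, height 14). The PHF6 peaks inside them had heights of 21, 25, 23 and 36 in the same order. None of the 5 sites overlapped H3K27me3, which had 5395 autosomal peaks against 31732 of H3K27ac. The share of all H3K27ac peaks that overlap H3K27me3 is not given here, so this is not read as a trait of these sites.

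**Figure D4:**
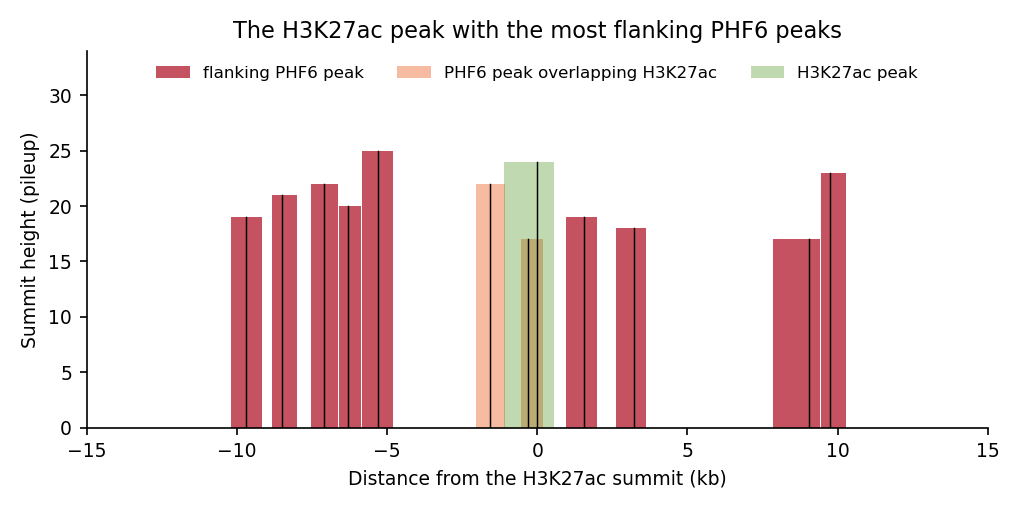
Peaks around the H3K27ac peak with the most flanking PHF6 peaks, by distance from its summit in kb (horizontal axis). Each block spans a peak and is as tall as its summit height, and a black line marks the summit. Red blocks are the 9 flanking PHF6 peaks, orange blocks the 2 PHF6 peaks that overlap H3K27ac and the green block the H3K27ac peak, with height 24. The red blocks stand between 17 and 25 on both sides of the green one.

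Acetylation on both sides went with more flanking PHF6. An H3K27ac summit lay within 10 kb on both sides of 4740 flanking peaks, or 26.95% (26.3 to 27.6), while such ground made up 16.9% of the flanking ground. Of the taller unmarked peaks in the flanks, 32.1% (29.7 to 34.6) had H3K27ac on both sides. Density was 77.3 per Mb (75.1 to 79.5) between 2 H3K27ac summits and 42.5 (41.7 to 43.2) where H3K27ac was near on 1 side only, a ratio of 1.82 (1.76 to 1.88). The ratio was 1.86 (1.79 to 1.93) where the nearest H3K27ac peak held PHF6 and 1.49 (1.35 to 1.63) where it did not. Ground with H3K27ac on both sides and PHF6 in the nearest of these H3K27ac peaks, at 93.6 per Mb, was the densest of these 4 classes, and ground with H3K27ac on 1 side and no PHF6 in the nearest peak, at 23.1 per Mb, the sparsest. Whether the H3K27ac peak on the other side held PHF6 was not examined. Density also changed with distance to the nearest H3K27ac summit, and ground on both sides and on 1 side was not matched for distance.

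Where an H3K27ac peak had 2 flanking peaks, they were more often on the same side than on opposite sides. Of 2544 H3K27ac peaks with exactly 2 flanking peaks, 850 or 33.4% (31.6 to 35.3) had 1 on each side, and in the others both were on the same side. Room on the 2 sides can be unequal, which was not taken into account. Position within a peak showed little polarity: 51.2% (50.5 to 52.0) of flanking peaks had their summit on the side of the peak's midpoint that faced the nearest H3K27ac summit, against 49.9% (49.3 to 50.4) of distant peaks.

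The flanking peaks also lay close to other PHF6 peaks. The nearest other PHF6 summit of any class was a median of 2.49 kb away (quartiles 1.62 and 4.20), against 6.76 kb (2.51 and 22.7) for distant peaks, and it was within 5 kb for 80.6% of flanking peaks, 82.9% of the taller unmarked peaks in the flanks and 43.3% of distant peaks. This nearest neighbour was an acetylated PHF6 peak for 41.7% (41.0 to 42.4) of the flanking peaks and another flanking peak for 46.1% (45.3 to 46.8). Both shares depend on how the class was drawn, since H3K27ac is near every flanking peak.

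Joined at summit gaps of up to 5 kb, the flanking peaks formed 11471 runs, of which 7817 were single peaks and 3654 held 2 or more. These longer runs contained 9771 flanking peaks, or 55.6%, and with gaps of up to 2.5 kb the share was 32.9% (5793 peaks). The longest runs had 13 peaks. The first of them covered 33.5 kb of chromosome 17 from 27559290 to 27592754 (qA3.3), where 15 PHF6 peaks included 2 in H3K27ac, and the only 2 H3K27ac peaks within 10 kb had heights of 15 and 16. The second covered 27.9 kb of chromosome 15 from 77599003 to 77626871 (qE1), and another 31.0 kb of chromosome 11 from 77620939 to 77651896 (qB5). The last 2 named were among 3 runs of 11 peaks. They lay on chromosome 15 from 78604554 to 78629937 (qE1) and chromosome 5 from 30666150 to 30691376 (qB1). Median heights in these 5 runs were 19 to 23, and none contained a taller unmarked PHF6 peak. Taller peaks were 7.54% of unmarked peaks in the flanks, and the runs were ranked by their number of low ones. Every H3K27ac peak within 10 kb of these runs held PHF6. Of all autosomal H3K27ac peaks, 72.2% held PHF6.

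Trimethylation was uncommon but nearer than for distant peaks. An H3K27me3 summit lay within 10 kb of 1592 flanking peaks, or 9.05% (8.63 to 9.49), against 2.85% (2.67 to 3.04) of distant peaks. The share was 10.9% (9.31 to 12.6) for the 1435 taller unmarked peaks in the flanks and 6.89% (6.39 to 7.41) for low PHF6 peaks in H3K27ac. Median distances to H3K27me3 were 90.5 kb for flanking and 187 kb for distant peaks. H3K27me3 peaks were called under another setting than the other 2 lists, and their number sets these shares. The share of flanking ground within 10 kb of an H3K27me3 summit is not given here. Whether the flanking peaks differ in this from the ground they lie on was therefore not tested.

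Flanking peaks were unevenly spread over the genome. They ranged from 2.55 per Mb on chromosome 3 to 14.1 per Mb on chromosome 11, the autosomes with the fewest and the most H3K27ac peaks per Mb (8.44 and 22.2). Over the 19 autosomes, Pearson's r between flanking and H3K27ac peaks per Mb was 0.933 (Spearman's rho 0.911). This is a description, since flanking peaks were chosen by their distance to H3K27ac. Per Mb of flanking ground the range was still 22.3 on chromosome 3 to 66.6 on chromosome 15. Autosomes with dense flanks were also dense at 10 to 50 kb, where values ran from 14.2 on chromosome 3 to 42.4 on chromosome 11 (r = 0.965, rho 0.926).

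Some of the contrasts described above were also computed for each autosome. The ratio of flank to 10 to 50 kb was above 1 on 19 of 19 autosomes, between 1.24 on chromosome 16 and 1.89 on chromosome 15. Density next to H3K27ac with PHF6 exceeded that next to H3K27ac without PHF6 on 19 of 19, with ratios of 1.62 on chromosome 18 to 2.99 on chromosome 19. The top decile of H3K27ac by height had a lower flanking density than the bottom decile on all autosomes except chromosome 3, where the ratio was 1.001. The others ran from 0.236 on chromosome 6 to 0.803 on chromosome 10.

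**Figure D5:**
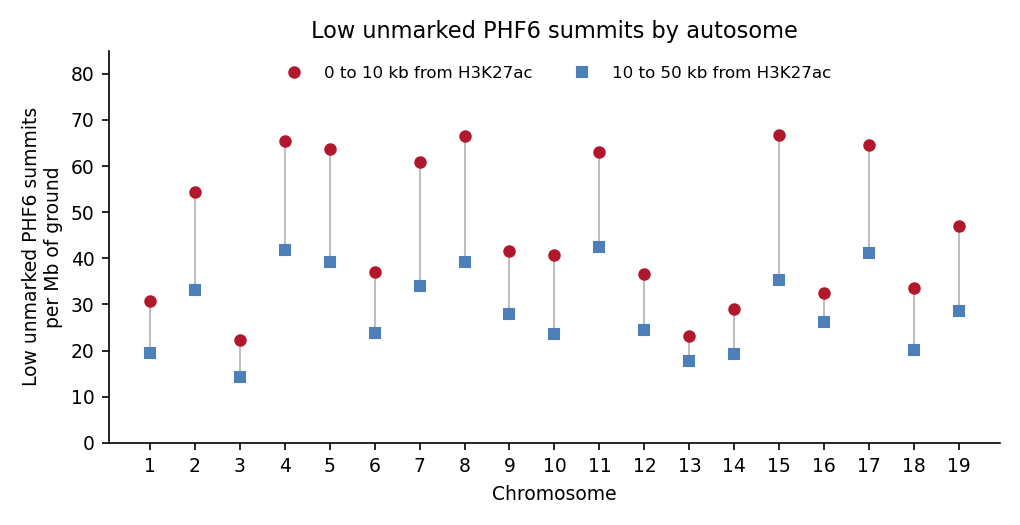
Low unmarked PHF6 summits per Mb of ground outside both histone marks (vertical axis) on each autosome (horizontal axis). Red circles are ground within 10 kb of an H3K27ac summit, which holds the flanking peaks, and blue squares ground at 10 to 50 kb, with a grey line joining the 2 values of a chromosome. The circle stands above the square on all 19 autosomes, from 22.3 on chromosome 3 to 66.6 on chromosome 15.

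Light cytogenetic bands, which are gene-rich, held 57.2% of flanking peaks and 50.8% of distant peaks, and made up 41.2% of autosomal length. The darkest bands held 13.5% and 20.8% of the 2 classes and made up 31.2%. For H3K27ac peaks these shares were 49.9% in light and 19.5% in the darkest bands, so the flanking peaks leaned further to light bands than acetylation did. The 5 densest bands were chromosome 4 qD3, with 433 flanking peaks at 56.7 per Mb, chromosome 15 qE1 (53.9 per Mb) and qE2 (44.2), chromosome 17 qA3.3 (43.3) and chromosome 2 qH3 (42.3). Bands qE1 of chromosome 15 and qA3.3 of chromosome 17 also held 3 of the 5 runs named above. At the other end, 43 of 369 autosomal bands had 0 flanking peaks, and the first 5 of them in genome order were qA4, qE1.2, qE3, qG1 and qG2 of chromosome 1, with 2 to 13 H3K27ac peaks each.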

How the data were processed

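The deposited files are a peak list and a summit list for each of the PHF6, H3K27ac and H3K27me3 libraries; the input library was not analysed here. Per the labels' protocols, crosslinked nuclei were sonicated and fragments of 200 to 400 bp were sequenced as single reads of 40 nt. MACS 1.4.0, Bowtie2, SAMtools and build mm9 are named in the submitters' processing notes, without their roles. Per the file names, all lists used a threshold of 1e-06, and the PHF6 and H3K27ac lists were called without local lambda. The score deposited with each peak starts at 60, which is that threshold on the caller's scale of 10 times minus log10 p. The signal deposited with each summit is a whole-number pileup height, not scaled between libraries, and was used only within 1 list. Read totals are not in these lists, so depth is unknown.

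Ground is every autosomal base outside H3K27ac and H3K27me3 peaks, assembly gaps included, assigned to its nearest H3K27ac summit. Shares carry 95% exact (Clopper-Pearson) intervals, and densities and their ratios exact Poisson intervals. With 1 library per antibody no test was run. Sites named are the top 5 of each ranking (score, flanking peaks per H3K27ac peak, run length, band density), ties by score and then position. The peaks and rankings were chosen with earlier results of these data known. The routines were tested on simulated lists. Chromosome lengths were those of GenomeInfoDb 1.38.1 and bands those of circlize 0.4.16 (R 4.3.3). Python 3.11.15 was used with scipy 1.17.1, pandas 2.3.3, matplotlib 3.10.9 and numpy 2.4.6.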

Additional observations from a re-analysis of the deposited data

Results flagged for a closer look

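Outside the autosomes, 24 PHF6 peaks, all on chromosome X, met the other conditions for a flanking peak, of 660 low unmarked peaks on chromosomes X and Y. For 14 of the 24 the nearest H3K27ac peak held PHF6. On the autosomes, 35.6% of low unmarked peaks were flanking peaks, and for 85.1% of these the nearest H3K27ac peak held PHF6. The share of H3K27ac peaks on chromosome X that hold PHF6 is not given here. The 24 peaks are listed because the comparisons above leave these chromosomes out.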

How the results depend on the processing

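Under 8 alternative settings none of the 3 density ratios recomputed crossed 1. The ratio by PHF6 in the nearest H3K27ac peak was added to this set after seeing the data. The number of flanking peaks (17588) was 8248 at a score of at least 100 in all 3 lists, 7557 with heights below 20 and 9639 within 5 kb. For those 3 settings and for H3K27ac peaks of height 20 or more only, in that order, the ratio of flank to farther ground up to 50 kb (1.67) was 1.60, 1.52, 1.501 and 1.404. The share next to H3K27ac with PHF6 (85.1%) was 80.6%, 84.3%, 86.0% and 83.3%. The density ratio of H3K27ac with to without PHF6 (2.32) was 2.44, 2.18, 2.49 and 2.20. The ratio of top to bottom height decile (0.414) was 0.366, 0.363, 0.342 and 0.361. The share with H3K27ac on both sides (26.95%) was 24.0%, 24.5%, 14.6% and 22.1%. It was also 26.3% without H3K27ac peaks in all 3 lists, 28.7% with distance measured to peak edges and 24.6% with peaks within 500 bp counted as marked. A limit of 5 kb narrows both sides by construction, and otherwise the cause was not tested. With run gaps of up to 2.5 kb in place of 5 kb the number of runs was 14293, and 32.9% of flanking peaks were in runs of 2 or more, against 55.6%. Of 49 recomputed values 23, the number of runs among them, stayed within the counting interval or, for counts, within 1.5 times. Depth is unknown, so whether lower peaks were missed was not tested. No paired analysis was possible because the libraries had no replicates.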
